A study of Homo sapiens with 36 samples.

Results

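The clustered protocadherins are adhesion proteins of the cell surface whose genes lie in 3 neighbouring clusters, alpha, beta and gamma. They were taken here as every protein-coding gene whose symbol starts with PCDHA, PCDHB or PCDHG followed by A, B, C or a number. This gave 53 genes, 15 alpha, 16 beta and 22 gamma, of 18733 protein-coding genes and 45478 genes in all in the count table. All 53 lie on the plus strand of chromosome 5, at chr5:140786136-141512981 in build GRCh38 with the GENCODE 29 annotation.

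Each alpha and gamma gene joins a large first exon of its own, which encodes the extracellular cadherin repeats, to constant exons that its whole cluster shares and that encode the common cytoplasmic end. Each beta gene stands mostly alone, with no constant part. In neurons a few of these promoters are used per cell, a choice known to depend on CTCF, cohesin and promoter DNA methylation, and the resulting mix of proteins lets a neurite recognise its own branches. In Wilms tumour, a kidney cancer of childhood, the clusters are known for DNA methylation and silencing that spread over many of their promoters.

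The libraries came from A498 and 786-O, 2 established lines of human clear cell renal cell carcinoma, each in a state made resistant to sunitinib, which inhibits receptor tyrosine kinases, and in the parental state. The A498 cells had been selected at 2 µM and the 786-O cells at 4 µM sunitinib. Every library had also received atezolizumab, avelumab or durvalumab, antibodies against PD-L1, for 24 h at 10 mg/mL as the labels write the concentration. The 12 groups of line, state and antibody held 3 libraries each, 36 in all, so each of the 4 sets of line and state had 9. Libraries with no antibody were not analysed here, so each level is a level under an antibody. The labels name no separate cultures or repeated selections, so the p-values reflect no more than the spread between libraries, which may be technical. Each set carries its own batch label, so a difference between sets and a difference between batches cannot be told apart.

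The 9 libraries labelled sunitinib-resistant A498 went against their label. Their mean profile, as log2(CPM + 1) over 16608 genes outside the clusters, correlated at r = 0.989 with that of resistant 786-O, at r = 0.96 with parental 786-O and at r = 0.886 with parental A498. HIF1A, a subunit of the hypoxia-inducible factor, stood at 8.40 to 9.73 CPM (counts scaled to a common library total of 1000000) in these libraries, against 285 to 305 CPM in parental A498 and 7.92 to 10.3 CPM in both 786-O sets. They are called A498-labelled resistant below, and the comparison with parental A498 rests on them alone, with no value without them. Library totals ran between 19994882 and 58122896 counts. Of 11 markers of kidney tubule and clear cell carcinoma, 8, 8, 8 and 7 reached 1 CPM in A498-labelled resistant, parental A498, resistant 786-O and parental 786-O cells. NDUFA4L2 and LRP2 stayed below 1 CPM in each set. CA9 averaged 1.27 CPM in parental A498 and was near 0 in the other sets.

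How the clusters could be counted differs. Of the exon bases of a gene, those shared with another annotated gene made up a median of 49.4% for alpha, 43.9% for gamma and 5.14% for beta genes, with ranges of 21.3% to 63.1%, 27.6% to 64.4% and 0% to 24.9%. A read in a constant exon meets every gene of its cluster, and how the authors' counting treated such reads is not given in the sources used here. In parental 786-O cells PCDHGC3 had 16044 counts and PCDHGB4 had 0, so such reads were not added to every gene of the cluster. Near-identical copies add to this: 45.1% of the 50-base words in PCDHB8 exons, 33.5% in PCDHB10 and 28.0% in PCDHA8 also occur in transcripts of other genes. The share was 25.9% in PCDHA7, 25.4% in PCDHA6, 24.6% in PCDHB9, 24.2% in PCDHB13, 23.4% in PCDHB2 and 19.9% in PCDHGB5. Counts of all these genes, among others, are uncertain for this reason. The alpha and gamma values are therefore best read as counts of the variable first exons, and genes are ranked within a set as CPM per kb of unshared exon. Cluster sums, shares of counts and numbers of genes at 1 CPM use plain CPM, with no correction for exon length.

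The clusters were used unevenly in these kidney cancer cells. All 53 genes had at least 1 count somewhere, but genes averaging 1 CPM or more numbered 12 in A498-labelled resistant, 13 in parental A498, 9 in resistant 786-O and 5 in parental 786-O cells. Genes with no count in any of the 9 libraries numbered 7 in A498-labelled resistant, 0 in parental A498, 9 in resistant 786-O and 12 in parental 786-O cells. A count of 0 over the 9 libraries allows a level of up to 0.0136, 0.00801 and 0.00853 CPM in A498-labelled resistant, resistant 786-O and parental 786-O cells (3 counts over the set, counting error only).

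**Figure D1:**
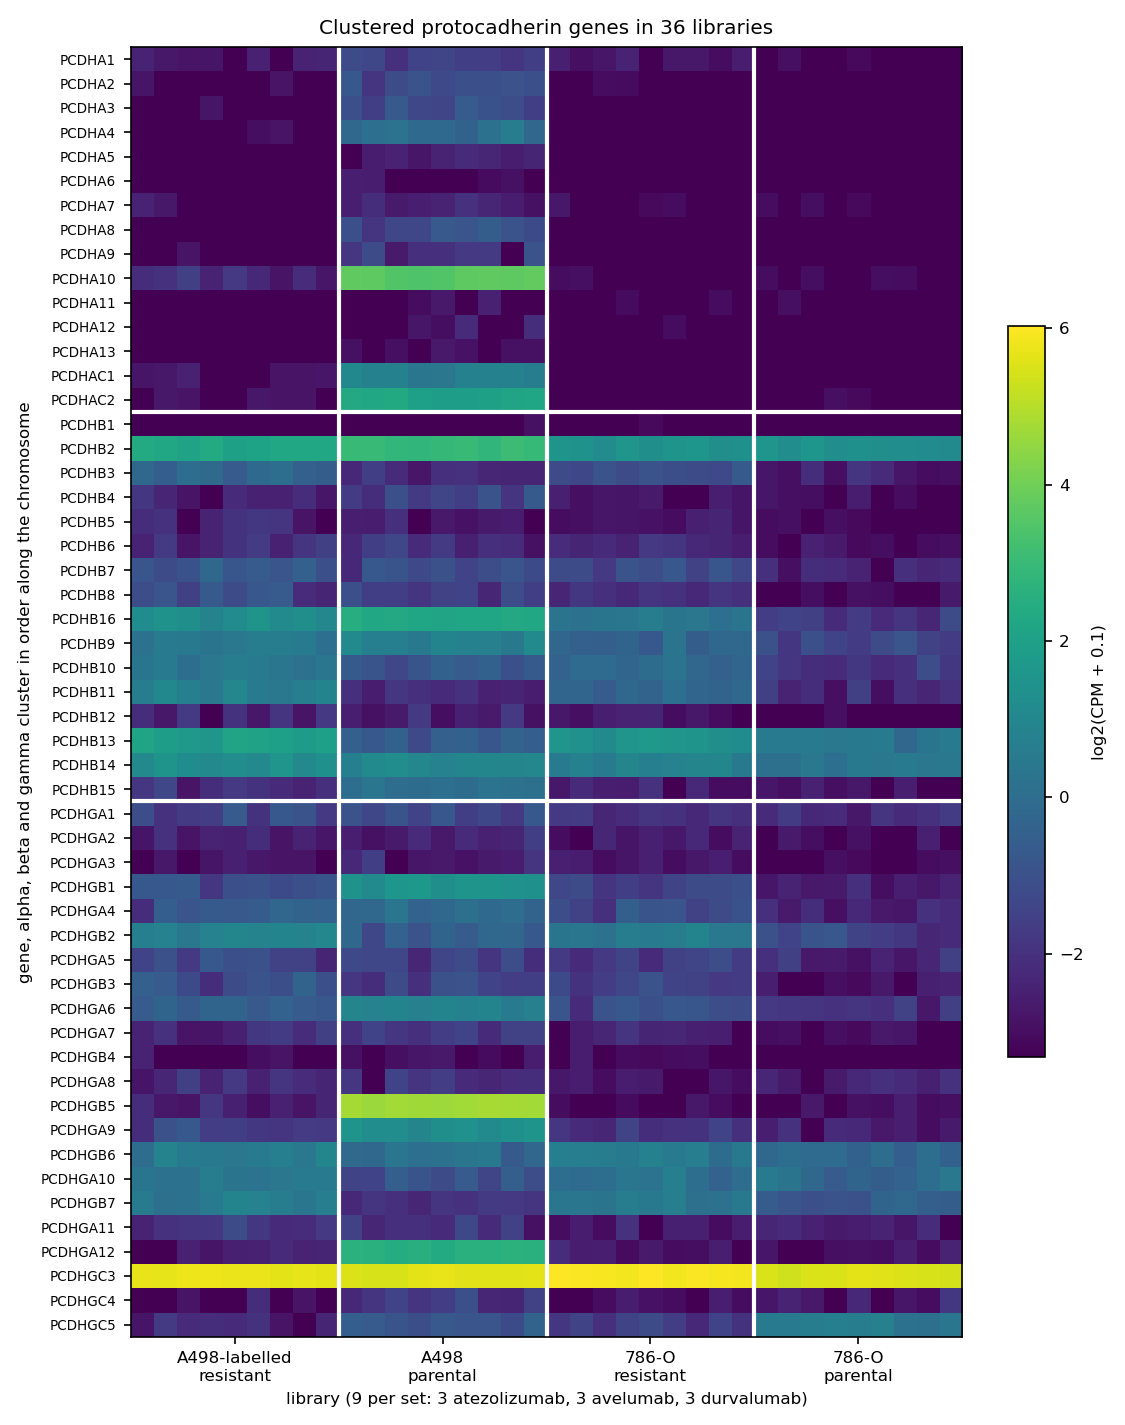
Heat map of log2(CPM + 0.1) for the 53 genes (rows, in chromosomal order, white lines between clusters) in the 36 libraries (columns, white lines between the 4 sets of 9). PCDHGC3 is high in every library, the alpha genes are seen almost only in parental A498, and PCDHGB5 and PCDHGA12 form bright rows in that set alone.

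PCDHGC3 was the leading gene in every library. It is one of the C-type members, which are known for steadier use than the others, and in mouse it is known to bind Axin1 of the Wnt pathway. It averaged 52.5 ± 2.09 CPM in A498-labelled resistant, 47.3 ± 2.79 in parental A498, 60.8 ± 2.53 in resistant 786-O and 45.3 ± 2.70 in parental 786-O cells (SD, n = 9 each). That was 85.0%, 51.8%, 89.2% and 90.3% of all gamma counts in those sets. Per kb of unshared exon PCDHGC3 held 16.1, 14.6, 18.7 and 13.9 CPM, and the next genes were far below it except in parental A498. There PCDHGB5 followed with 9.82 and PCDHGA12 with 2.23 CPM per kb. In A498-labelled resistant cells PCDHB2 and PCDHB13 followed with 1.31 and 0.733 CPM per kb, in resistant 786-O cells the same pair with 0.732 and 0.519, and in parental 786-O cells PCDHB2 and PCDHGC5 with 0.689 and 0.469.

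Summed over each cluster, the sets had distinct profiles. The alpha sum was 0.2827 ± 0.1004 CPM in A498-labelled resistant and 21.02 ± 1.584 CPM in parental A498 cells, and 0.0782 ± 0.0411 CPM in resistant and 0.0330 ± 0.0226 CPM in parental 786-O cells (SD, n = 9 each). The beta sum was 19.0 ± 1.06 CPM in A498-labelled resistant and 19.3 ± 0.921 CPM in parental A498 cells, and 11.4 ± 0.863 CPM in resistant and 5.93 ± 0.613 CPM in parental 786-O cells. The gamma sum without PCDHGC3 was 9.26 ± 0.728 CPM in A498-labelled resistant and 44.0 ± 1.79 CPM in parental A498 cells, and 7.36 ± 0.794 CPM in resistant and 4.86 ± 0.456 CPM in parental 786-O cells. The alpha sums and the gamma sums without PCDHGC3 did not overlap between parental A498 and any other set. The beta sums overlapped between the 2 sets labelled A498 and between no other pair of sets.

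**Figure D2:**
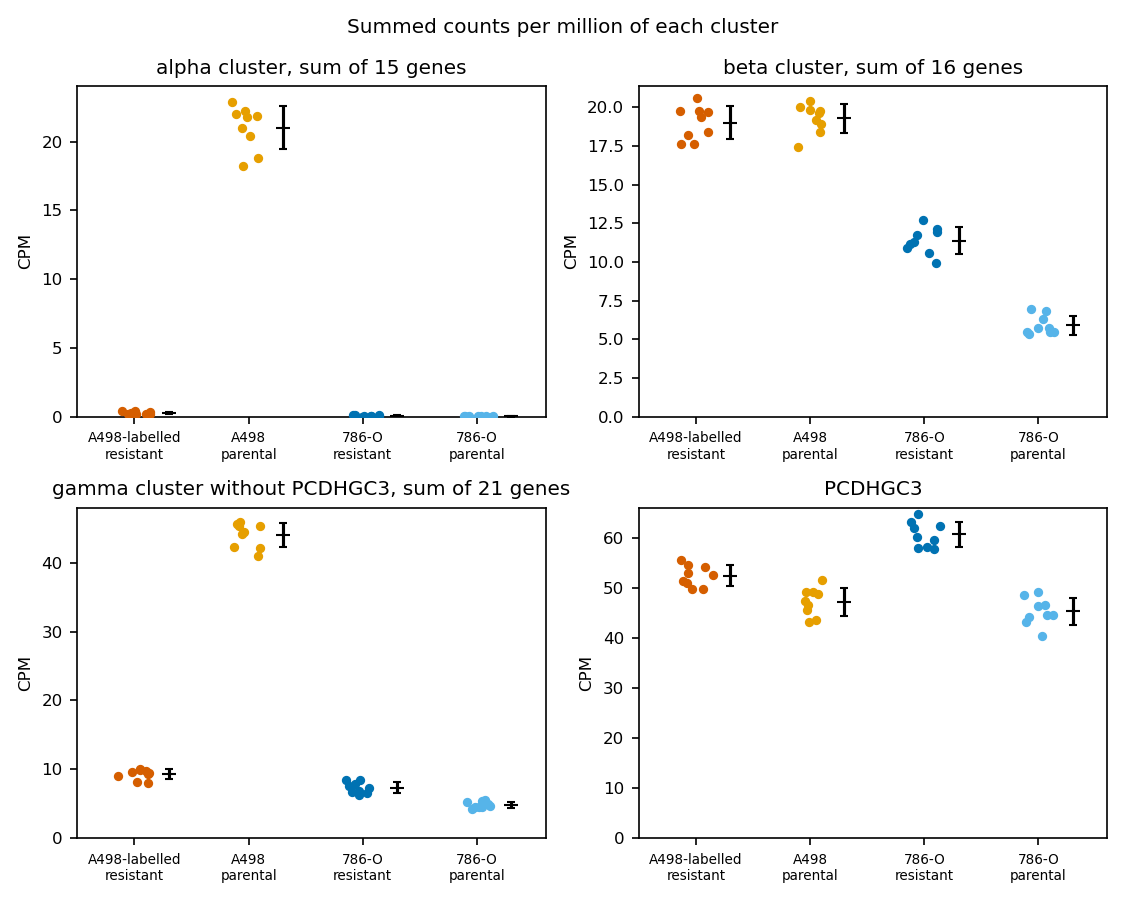
Summed CPM per library for the alpha genes, the beta genes, the gamma genes without PCDHGC3, and PCDHGC3 alone (y axes, linear, each from 0), with 9 points per set and the mean ± SD beside them. Parental A498 stands alone in the alpha panel at 18.3 to 22.9 CPM, and the 2 resistant sets lie above parental 786-O in the beta panel.

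Many promoters of these genes, though not all, carry a short conserved element, known to be bound by CTCF and to hold the letters CGCT. Promoter sequences are therefore shown before the comparisons. RefSeq promoters (GRCh38.p14, 250 bases before to 50 after the start) were found for 47 of the 53 genes. CGCT, read on both strands, occurred in 46 of the 47 (97.9%) and in 71.8% of the promoters of 27258 other genes. Several of the 8-base words most shared by the 47 promoters hold CGCT, and many of these overlap each other by shifted letters. The 3 given here were picked after their counts were seen, to show windows in all 3 clusters, so their frequency is a description and no test, and other words were also found in 1 cluster alone. GTGGCGCT was in 13 of 14 beta promoters, all but that of PCDHB1, in no alpha or gamma promoter, and in 1.34% of other genes' promoters. GTCGCTGT was in 5 of 13 alpha and 6 of 20 gamma promoters, and in 0.752% of the others. GCCGCTGT was in 11 of 20 gamma promoters and no alpha or beta promoter, and in 1.95% of the others. All 3 words, searched on both strands, contain CGCT, so each match is also a CGCT match, and 12 of the 47 promoters held none of them, among them those of PCDHA4, PCDHAC1, PCDHAC2 and PCDHGB7. The windows below, plus strand, 5′ to 3′, are those of some genes of the comparisons that hold a word, picked by hand, with the word in capitals. PCDHAC1, PCDHAC2 and PCDHGB7 also take part in the comparisons but hold no such word. For PCDHGA12, PCDHGC5 and PCDHB11 no promoter was found.
PCDHA10 (chr5:140855839-140855878): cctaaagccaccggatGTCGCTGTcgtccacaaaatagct
PCDHB2 (chr5:141094540-141094579): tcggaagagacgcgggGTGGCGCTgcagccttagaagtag
PCDHB13 (chr5:141213861-141213900): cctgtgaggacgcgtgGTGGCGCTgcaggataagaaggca
PCDHB16 (chr5:141182306-141182345): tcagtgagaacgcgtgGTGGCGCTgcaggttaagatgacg
PCDHGB2 (chr5:141359919-141359958): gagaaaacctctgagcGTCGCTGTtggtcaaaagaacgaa
PCDHGB5 (chr5:141397861-141397900): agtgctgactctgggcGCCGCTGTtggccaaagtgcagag
PCDHGC3 (chr5:141475878-141475917): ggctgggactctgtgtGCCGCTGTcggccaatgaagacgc
The word began 42 bases before the RefSeq start in PCDHA10, 59 in PCDHB2, 42 in PCDHB13, 65 in PCDHB16, 201 in PCDHGB2, 70 in PCDHGB5 and 72 in PCDHGC3. PCDHGB5 and PCDHGC3 both hold GCCGCTGT, and in 786-O cells the one was near 0 and the other led all 53 genes. Another RefSeq promoter of PCDHGB5 lacks the full word. Whether the words go with the levels was not tested.

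Resistant 786-O cells had more clustered protocadherin RNA than parental 786-O cells, in beta and gamma genes and with 1 gene going the other way. Of the 53 genes, 20 had enough counts to be tested, 9 beta and 11 gamma. By edgeR's quasi-likelihood test with Benjamini-Hochberg adjustment over all 19369 genes tested, 17 of the 20 were higher and 1 was lower at an adjusted p under 0.05, where 83.8% of all genes tested passed in either direction, 43.6% higher and 40.2% lower. The share of the 20 that changed at all is thus near that of all genes. The 33 untested genes include all 15 alpha genes, and the test keeps genes for being present in at least 1 group. Counting all 53 by pooled CPM with no test, 38 were higher, 7 were lower and 8 had no count in either set. All 16 beta genes were among the higher, including PCDHB1 with 1 count in resistant and 0 in parental cells, and PCDHB2 with 959 and 855. Pooled CPM use raw totals, on which the median change of all genes in 786-O lay further above 0 than after scaling. Here and below, the share of all genes higher by pooled CPM was not computed, so such counts stand without a background. The sum of 8 neuron markers moved with this difference, at 22.04 to 27.0 CPM in resistant and 8.63 to 10.7 CPM in parental 786-O libraries, with 3 and 4 of the 8 at 1 CPM or more, ELAVL4 at 0 in both sets and STMN2 at 0 in the parental one. Of the 4 neuron markers tested, MAP2, SYT1 and RBFOX3 were higher, MAP2 at 13.8 CPM in resistant and 2.40 CPM in parental cells, and SNAP25 was lower, at 0.593 CPM in resistant and 3.13 CPM in parental cells. The 6 endothelial and fibroblast markers summed to 3.36 to 4.63 CPM in resistant and 1.57 to 2.58 CPM in parental libraries. Their part in the result was not tested. The 5 leukocyte markers summed to 1.17 CPM or less in every library of the series. In bulk RNA, fewer cells that use a gene and less RNA per cell cannot be told apart.

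PCDHB16 changed most among the beta genes that reached 1 CPM. It ran between 0.955 and 1.42 CPM (median 1.13) in resistant 786-O and between 0.102 and 0.335 CPM (median 0.206) in parental 786-O libraries. The sets did not overlap, and the log2 change was 2.43 ± 0.164 (SE, n = 9 each, edgeR adjusted p = 6.11e-15). PCDHB13 ran between 2.14 and 3.18 CPM (median 2.79) in resistant and between 0.757 and 1.40 CPM (median 1.32) in parental libraries. These did not overlap either, with a log2 change of 0.97 ± 0.0929 (edgeR adjusted p = 2.97e-11). PCDHB14 ran between 1.28 and 1.84 CPM (median 1.62) in resistant and between 0.963 and 1.30 CPM (median 1.22) in parental libraries, which just overlapped, with a log2 change of 0.32 ± 0.10 (edgeR adjusted p = 0.0044). Its log2 change was of similar size, 0.28, in the atezolizumab libraries alone and 0.28 in the durvalumab libraries alone, but with fewer libraries it did not pass there (edgeR adjusted p = 0.176 and 0.173).

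PCDHB2, the beta gene of highest CPM per kb in parental 786-O, showed no such difference. It averaged 2.57 ± 0.247 CPM in resistant and 2.42 ± 0.317 CPM in parental 786-O cells, and the log2 change of -0.03 ± 0.0770 did not pass (edgeR adjusted p = 0.766). The CPM are per raw total and the log2 change is after TMM scaling, and here their signs are opposite. The other 5 beta genes called higher were PCDHB3, PCDHB7, PCDHB9, PCDHB10 and PCDHB11, with log2 changes of 2.35, 1.69, 1.14, 1.95 and 2.28, all with means below 1 CPM in both sets.

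Among the gamma genes, PCDHGB2 ran between 1.01 and 1.77 CPM (median 1.25) in resistant and between 0.102 and 0.481 CPM (median 0.270) in parental 786-O libraries. Its log2 change was 2.23 ± 0.157 (edgeR adjusted p = 1.86e-14) and the sets did not overlap. PCDHGB7 ran between 0.991 and 1.497 CPM (median 1.18) in resistant and between 0.381 and 0.780 CPM (median 0.564) in parental libraries, again without overlap, a log2 change of 1.07 ± 0.130 (edgeR adjusted p = 5.63e-09). PCDHGB6 averaged 1.37 ± 0.219 CPM in resistant and 0.800 ± 0.138 CPM in parental libraries, which overlapped, a log2 change of 0.68 ± 0.124 (edgeR adjusted p = 8.85e-06). PCDHGC3 was higher by a log2 change of 0.31 ± 0.0293 (edgeR adjusted p = 1.73e-11), with all 9 resistant libraries at 57.9 CPM or more and all 9 parental libraries at 49.2 CPM or less.

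PCDHGC5, a C-type member that in rat neurons is known to bind a GABA receptor subunit, was the gene called lower. It ran between 0.104 and 0.346 CPM (median 0.225) in resistant and between 0.997 and 1.57 CPM (median 1.40) in parental 786-O libraries. The log2 change was -2.68 ± 0.149 (edgeR adjusted p = 3.58e-17), and the sets lay far apart. PCDHGC3 and PCDHGC5, both C-type genes at the end of the gamma cluster that join the same constant exons, thus went in opposite directions.

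PCDHGA10 is given by antibody as well. Over all antibodies its log2 change of 0.11 ± 0.135 did not pass (edgeR adjusted p = 0.466). Under avelumab alone it was 0.90 and passed (edgeR adjusted p = 8.29e-04), while under atezolizumab it was -0.32 and under durvalumab -0.26, neither passing. Whether these 3 changes differ was not tested.

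**Figure D3:**
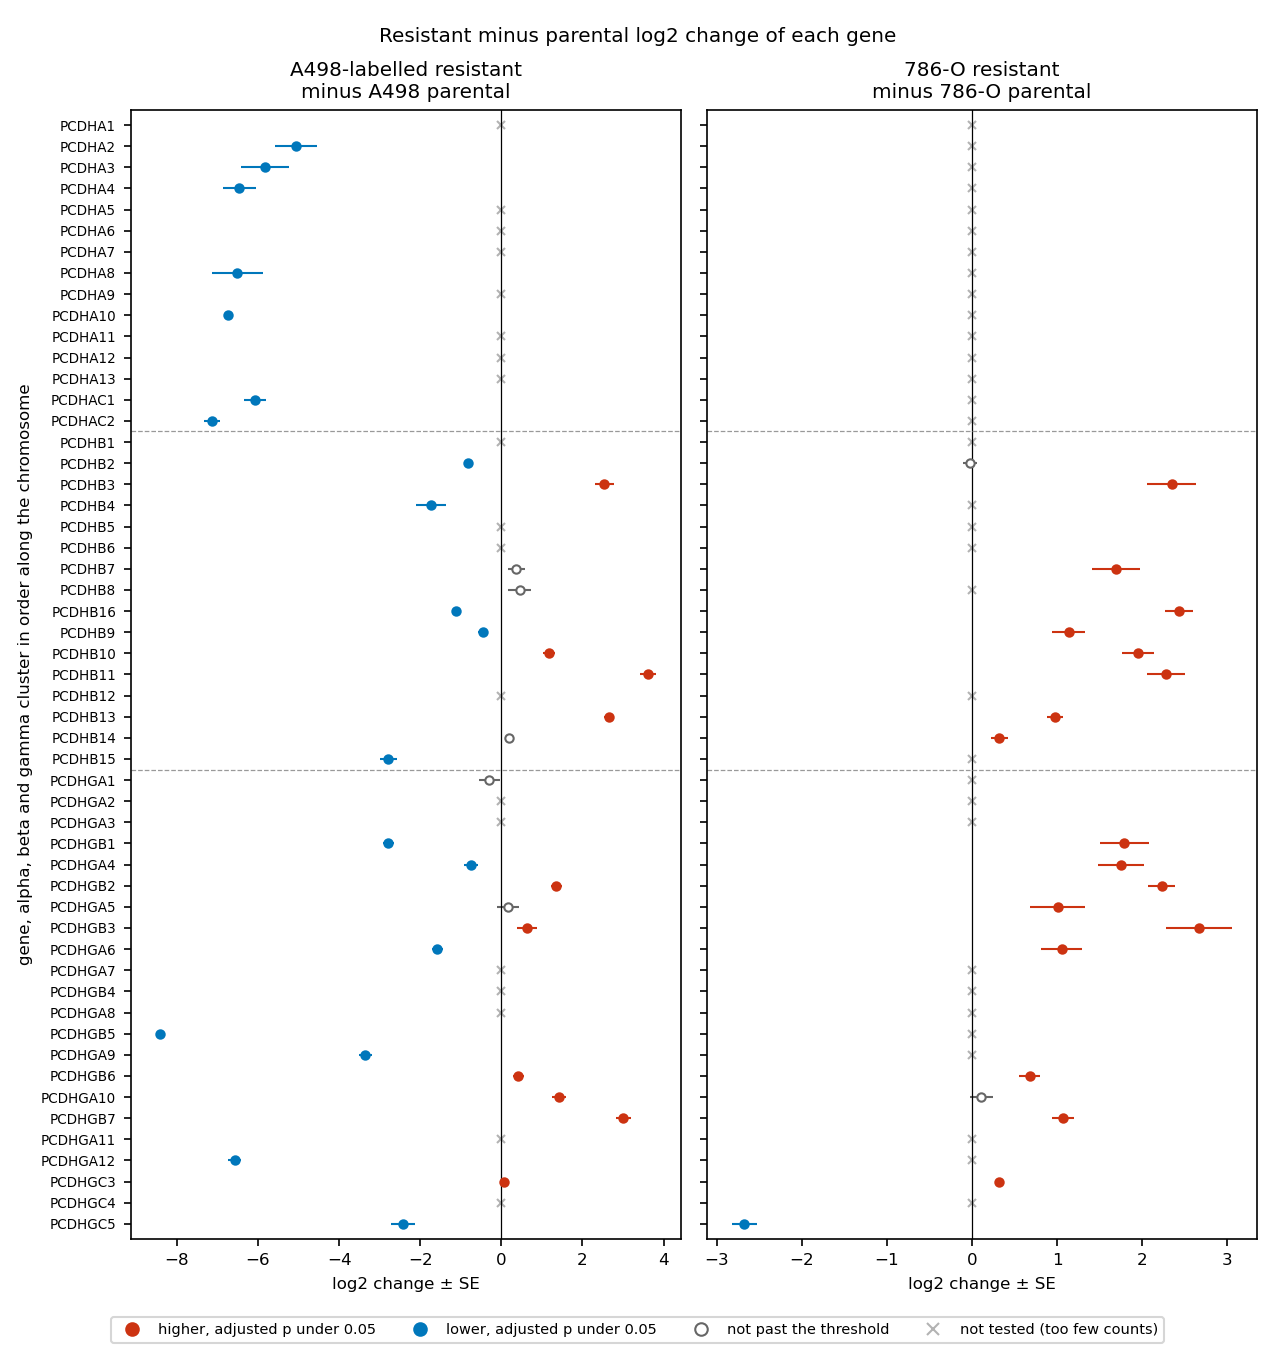
Log2 change ± SE of each gene in chromosomal order, for A498-labelled resistant minus parental A498 (left) and resistant minus parental 786-O cells (right, on its own x scale). Filled red and blue points passed an adjusted p of 0.05, open points did not, and crosses at 0 mark genes with too few counts to test. On the right all called genes but PCDHGC5 lie above 0, and on the left the 7 tested alpha genes lie between -7.15 and -5.07.

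The largest differences between A498-labelled resistant and parental A498 cells were in genes that were present in parental A498 and almost absent from the other sets. Of the 53 genes 34 were tested, 7 alpha, 12 beta and 15 gamma. Of these 10 were higher and 19 lower by edgeR, where 88.2% of 19458 genes passed in either direction, 44.2% higher and 44% lower. All 7 tested alpha genes were lower, the beta genes split into 4 higher and 5 lower, and the gamma genes into 6 higher and 7 lower. By pooled CPM over all 53 genes, 17 were higher and 36 lower, all 15 alpha genes among the lower. The neuron markers summed to 18.1 to 21.8 CPM in A498-labelled resistant and 33.4 to 38.4 CPM in parental A498 libraries, with 4 of 8 at 1 CPM or more in each and STMN2 and ELAVL4 at 0 in the parental set. Of the 4 tested, MAP2 was lower, at 11.8 CPM in A498-labelled resistant and 31.5 CPM in parental A498 cells, SYT1 was higher, at 5.85 CPM in A498-labelled resistant and 1.66 CPM in parental A498 cells, and SNAP25 and RBFOX3 did not pass. The endothelial and fibroblast markers summed to 4.27 to 6.46 CPM in A498-labelled resistant and 50.5 to 61.9 CPM in parental A498 libraries, with 1 of 6 at 1 CPM or more in each. That gene was COL1A1, at 4.70 CPM in A498-labelled resistant and 55.7 CPM in parental A498 cells, while VWF was higher, at 0.562 CPM in A498-labelled resistant and 0.0571 CPM in parental A498 cells. Their part in the result was not tested.

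PCDHA10 ran between 0.0413 and 0.245 CPM (median 0.127) in A498-labelled resistant and between 10.9 and 13.7 CPM (median 12.99) in parental A498 libraries. The log2 change was -6.73 ± 0.116 (edgeR adjusted p = 1.88e-42), and from pooled counts of 28 in A498-labelled resistant and 3787 in parental A498 the resistant level was 1.02% of the parental one. PCDHAC2, the C-type alpha member that mouse serotonergic axons are known to need for spacing, ran between 0 and 0.0537 CPM (median 0.0408) in A498-labelled resistant and between 3.70 and 4.99 CPM (median 4.34) in parental A498 libraries. That was a log2 change of -7.15 ± 0.199 (edgeR adjusted p = 9.59e-34), on 6 counts in A498-labelled resistant and 1292 in parental A498. Pooled counts gave a ratio of parental A498 over A498-labelled resistant of 156 (95% counting interval 71.4 to 425), a wider range than this SE implies. PCDHAC1, the other C-type alpha member, stood at 0 to 0.0817 CPM (median 0.0423) in A498-labelled resistant and at 1.18 to 1.97 CPM (median 1.61) in parental A498 libraries, a log2 change of -6.07 ± 0.279 (edgeR adjusted p = 3.29e-24). PCDHA4 had 2 counts in A498-labelled resistant and 284 in parental A498 libraries. PCDHA8 had 0 counts in A498-labelled resistant and 119 in parental A498 libraries, at least 28.7-fold lower in A498-labelled resistant cells against a floor of 3 counts over the set.

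In the gamma cluster PCDHGB5 showed the largest change of any member here. It ran between 0.0269 and 0.178 CPM (median 0.0783) in A498-labelled resistant and between 24.5 and 27.9 CPM (median 26.2) in parental A498 libraries, a log2 change of -8.42 ± 0.0995 (edgeR adjusted p = 2.97e-49). PCDHGA12, known as a gene whose promoter is methylated in several carcinomas, ran between 0 and 0.124 CPM (median 0.0806) in A498-labelled resistant and between 5.13 and 6.33 CPM (median 5.99) in parental A498 libraries. Its log2 change was -6.58 ± 0.158 (edgeR adjusted p = 2.45e-36). PCDHGA9 averaged 0.249 ± 0.117 CPM in A498-labelled resistant and 2.38 ± 0.307 CPM in parental A498 cells, a log2 change of -3.35 ± 0.162 (edgeR adjusted p = 5.44e-24). None of these 3 overlapped between the sets.

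The genes that were higher in A498-labelled resistant cells were beta and gamma genes. PCDHB11 averaged 1.54 ± 0.273 CPM in A498-labelled resistant and 0.116 ± 0.0405 CPM in parental A498 cells, a log2 change of 3.62 ± 0.195 (edgeR adjusted p = 3.72e-22). PCDHB13 averaged 3.71 ± 0.501 CPM in A498-labelled resistant and 0.569 ± 0.117 CPM in parental A498 cells, a log2 change of 2.65 ± 0.121 (edgeR adjusted p = 5.20e-25). PCDHGB7 averaged 1.36 ± 0.264 CPM in A498-labelled resistant and 0.156 ± 0.0357 CPM in parental A498 cells, a log2 change of 3.01 ± 0.183 (edgeR adjusted p = 3.51e-20). Neither these 3 nor PCDHGA10, PCDHGB2 and PCDHB10, with log2 changes of 1.43, 1.36 and 1.17, overlapped between the sets. PCDHB10 and PCDHB13 share much sequence with other genes, as given above.

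The beta cluster held genes lower as well as higher in A498-labelled resistant cells. PCDHB16 averaged 2.26 ± 0.344 CPM in A498-labelled resistant and 4.71 ± 0.347 CPM in parental A498 cells, a log2 change of -1.12 ± 0.0794 (edgeR adjusted p = 9.94e-18). PCDHB2 averaged 4.58 ± 0.462 CPM in A498-labelled resistant and 7.57 ± 0.491 CPM in parental A498 cells, a log2 change of -0.81 ± 0.0624 (edgeR adjusted p = 1.90e-16). PCDHB9 was lower by a log2 change of -0.46 ± 0.122 (edgeR adjusted p = 5.59e-04), with overlapping sets, and at -0.34 in the avelumab and -0.45 in the durvalumab libraries alone it did not pass (adjusted p = 0.12 and 0.0511). The beta sum of the 2 sets, 19.0 and 19.3 CPM, differed by less than their SD although single genes moved both ways. PCDHGC3 differed by a log2 change of 0.07 ± 0.0260 (edgeR adjusted p = 0.0183), small beside the spread, with overlapping sets.

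**Figure D4:**
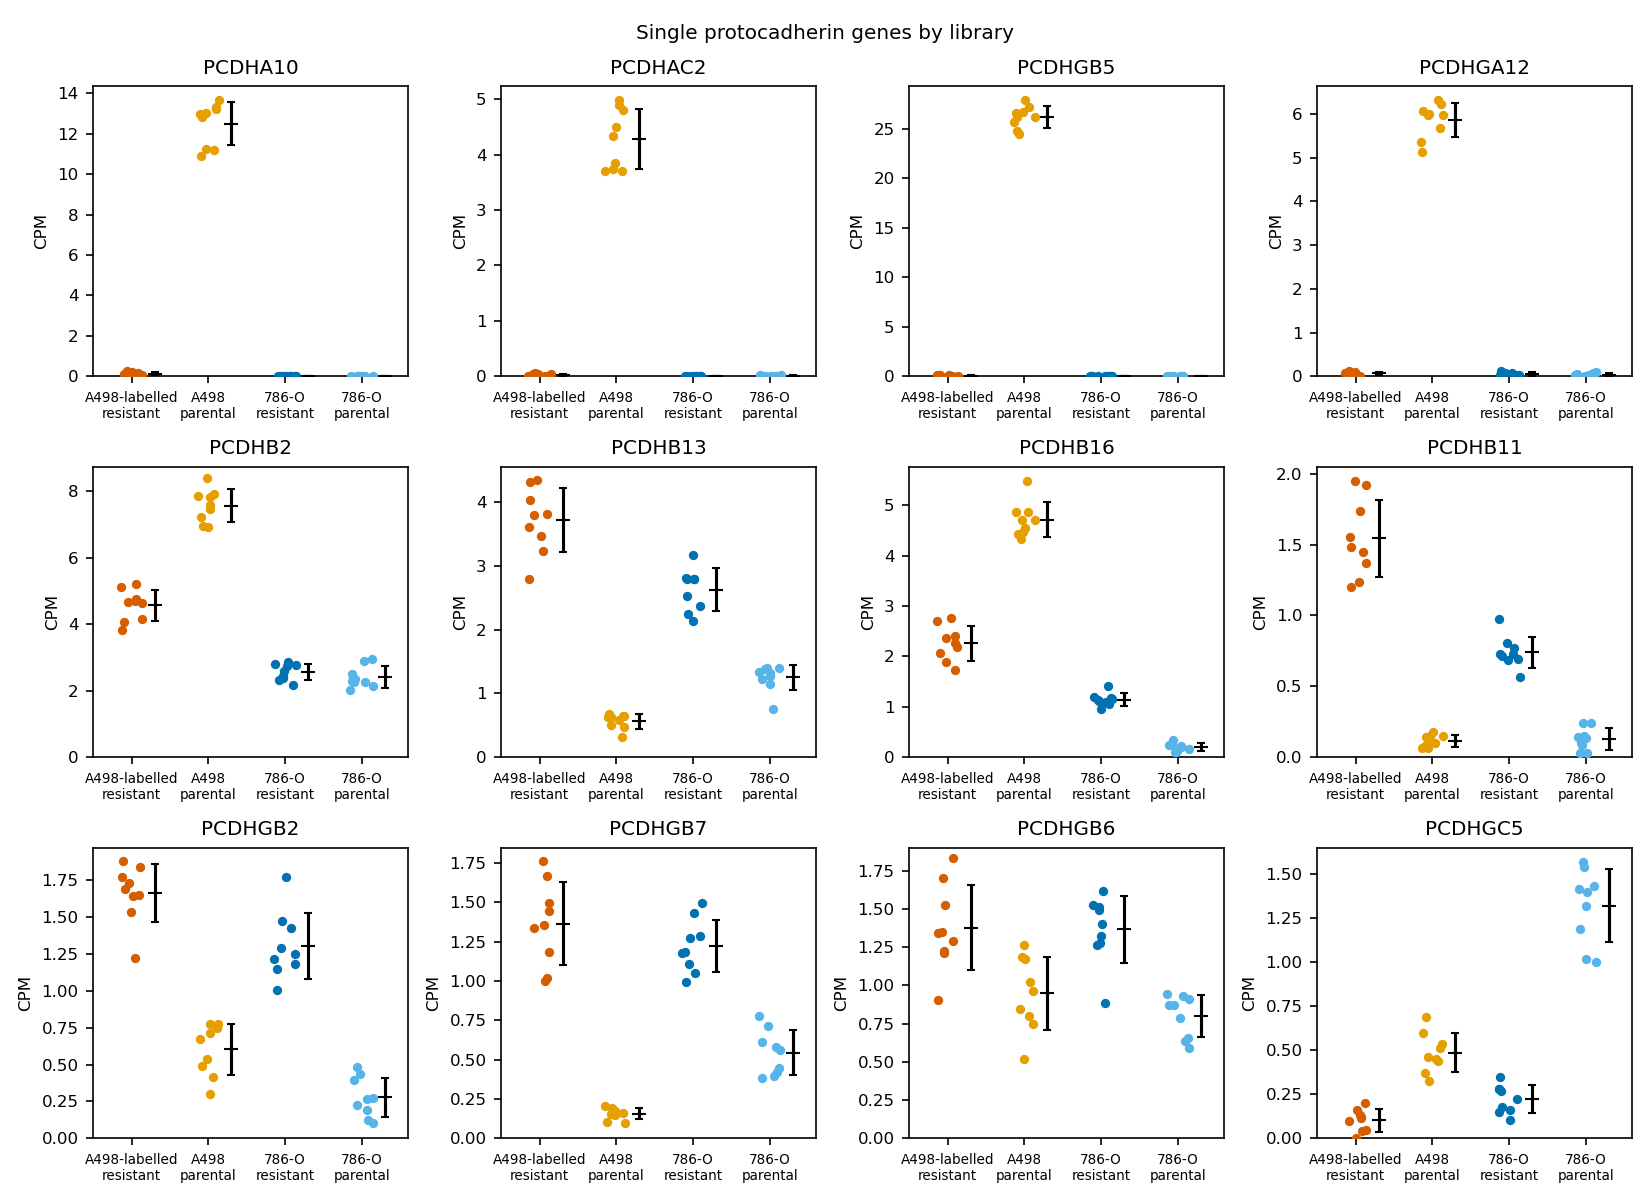
CPM of 12 genes in each library (y axes, linear, each from 0), 9 points per set with the mean ± SD beside them. PCDHA10, PCDHAC2, PCDHGB5 and PCDHGA12 are near 0 outside parental A498, PCDHB13, PCDHB11, PCDHGB2 and PCDHGB7 are higher in both resistant sets than in either parental set, and PCDHGC5 is highest in parental 786-O at 0.997 to 1.57 CPM.

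The parental lines differed in which protocadherins they used. Parental A498 against parental 786-O had 31 genes tested, 25 of them higher and 4 lower by edgeR, where 87.2% of 19703 genes passed in either direction, 44.3% higher and 42.9% lower. All 7 tested alpha genes were higher in A498, and by pooled CPM 48 of the 53 genes were higher and 5 lower. PCDHA10 had 3787 counts over the 9 parental A498 and 4 over the 9 parental 786-O libraries, a ratio of 1092 (95% counting interval 426 to 4011). PCDHAC2 had 1292 counts in parental A498 and 2 in parental 786-O, a ratio of 745 (206 to 6161), and PCDHAC1 had 463 in parental A498 and 0 in parental 786-O, at least 178-fold higher in A498 against a floor of 3 counts over the set. PCDHGB5 had 8010 counts in parental A498 and 10 in parental 786-O, a ratio of 924 (502 to 1928), and PCDHGA12 had 1781 in parental A498 and 13 in parental 786-O, a ratio of 158 (92.2 to 297). These intervals cover counting error only.

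Other differences between the parental lines were of moderate size. PCDHB16 stood at 4.33 to 5.49 CPM (median 4.70) in parental A498 and at 0.102 to 0.335 CPM (median 0.206) in parental 786-O libraries, a log2 difference of 4.54 ± 0.120 (edgeR adjusted p = 3.75e-32). PCDHGB1 averaged 2.63 ± 0.287 CPM in parental A498 and 0.0703 ± 0.0322 CPM in parental 786-O cells, a log2 difference of 5.09 ± 0.172 (edgeR adjusted p = 3.69e-28). PCDHB9 and PCDHB2 were higher in A498 by 2.41 and 1.61 on the log2 scale. PCDHB13, PCDHGC5, PCDHGA10 and PCDHGB7 were the 4 genes lower in A498, with log2 differences of -1.18, -1.46, -1.07 and -1.80. PCDHGC3 did not pass, at 0.03 ± 0.0257 (edgeR adjusted p = 0.268), and its libraries overlapped.

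A498-labelled resistant cells had more beta RNA than resistant 786-O cells. This comparison had 21 genes tested, 16 higher and 1 lower by edgeR, where 69% of 19196 genes passed in either direction, 33.8% higher and 35.2% lower. Changes were small, between -0.24 and 1.24 on the log2 scale. All 10 tested beta genes were higher in the A498-labelled set, and by pooled CPM 42 of the 53 genes were higher, 7 were lower and 4 had no count in either set. PCDHB11 ran between 1.20 and 1.95 CPM (median 1.48) in A498-labelled resistant and between 0.566 and 0.973 CPM (median 0.726) in resistant 786-O libraries, a log2 difference of 1.03 ± 0.125 (edgeR adjusted p = 9.82e-09). PCDHB16 and PCDHB2 differed by 0.96 ± 0.103 and 0.80 ± 0.0765 (edgeR adjusted p = 7.06e-10 and 4.85e-11), and none of these 3 overlapped between the sets. PCDHGB2 was higher by 0.32 ± 0.103 (edgeR adjusted p = 0.00656), and by 0.36, 0.29 and 0.33 in the atezolizumab, avelumab and durvalumab libraries alone, where fewer libraries were tested and the call was lost (adjusted p 0.139 to 0.174). PCDHGC3 was the gene lower in the A498-labelled set, by a log2 difference of -0.24 ± 0.0292 (edgeR adjusted p = 8.83e-09), with libraries of 49.8 to 55.7 CPM in A498-labelled resistant and 57.9 to 64.9 CPM in resistant 786-O cells.

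The alpha genes could not be tested between the resistant sets, but their traces differed. PCDHA10 had 28 counts in A498-labelled resistant, with some in each of the 9 libraries, and 2 in resistant 786-O libraries, a ratio of 23.8 (95% counting interval 5.995 to 206). The alpha sum was 0.178 to 0.449 CPM in A498-labelled resistant and 0.0192 to 0.150 CPM in resistant 786-O libraries, without overlap. PCDHGB5 had 17 counts in A498-labelled resistant and 5 in resistant 786-O, a ratio of 5.77 (2.04 to 20.0), and PCDHGA12 had 15 in A498-labelled resistant and 19 in resistant 786-O, a ratio of 1.34 (0.634 to 2.78). Against parental A498 the A498-labelled resistant levels of PCDHA10, PCDHAC2, PCDHAC1, PCDHGA12 and PCDHGB5 were 1.02%, 0.642%, 2.09%, 1.16% and 0.293%.

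The difference between the lines, as labelled, in their resistant minus parental change was tested in a fit over all 36 libraries. The A498-labelled resistant libraries went against their label. A difference in this change thus cannot be told apart from the difference between the parental lines. Of 34 genes tested, 17 had a more positive and 4 a more negative change in 786-O than in the libraries labelled A498, where 80.4% of 20752 genes passed in either direction, 39.8% more positive and 40.6% more negative. PCDHB16 was higher in resistant than parental 786-O cells and lower in A498-labelled resistant than parental A498 cells. Its difference was 3.54 ± 0.173 (edgeR adjusted p = 8.50e-26). PCDHB13 and PCDHGB7, higher in both resistant sets, had differences of -1.69 ± 0.161 and -1.96 ± 0.231 (edgeR adjusted p = 5.44e-14 and 4.72e-11). The 7 tested alpha genes were not called, since 0 to 4 counts of each in either 786-O set leave their change there unmeasured.

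Antibody groups within a set differed little. By an edgeR test of any difference among the 3 antibodies, 1 of 29 tested genes passed in parental A498, where 3.83% of 18372 genes passed. None of 20 passed in A498-labelled resistant, none of 20 in resistant 786-O and none of 10 in parental 786-O, where 0.0114%, 0.741% and 3.52% of all genes passed. At an unadjusted p under 0.05 there were 3 genes in parental A498, 0 in A498-labelled resistant, 2 in resistant 786-O and 5 in parental 786-O, and DESeq2's likelihood ratio test called 0 in each set.

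The gene that passed was PCDHGC3. In parental A498 it stood at 48.9, 49.3 and 51.7 CPM under avelumab, at 46.7, 47.5 and 49.2 CPM under durvalumab, and at 43.3, 43.6 and 45.7 CPM under atezolizumab. Avelumab libraries lay above atezolizumab libraries without overlap, a log2 difference of 0.17 ± 0.0433 (edgeR adjusted p = 0.0237), where 3.39% of genes passed, 1.71% higher and 1.68% lower, and the test of any difference gave an adjusted p of 0.049. That call was lost by DESeq2 (adjusted p = 0.0841), and without 8 of the 9 libraries in turn, with adjusted p-values of 0.0579 to 0.245. PCDHAC2 in the same cells stood at 3.70, 3.71 and 3.74 CPM under avelumab and at 4.81, 4.89 and 4.99 CPM under atezolizumab. Its log2 difference was -0.41 ± 0.109 (edgeR adjusted p = 0.0321), while the test of any difference did not pass (adjusted p = 0.0682). Durvalumab libraries lay between them at 3.85, 4.34 and 4.50 CPM.

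**Figure D5:**
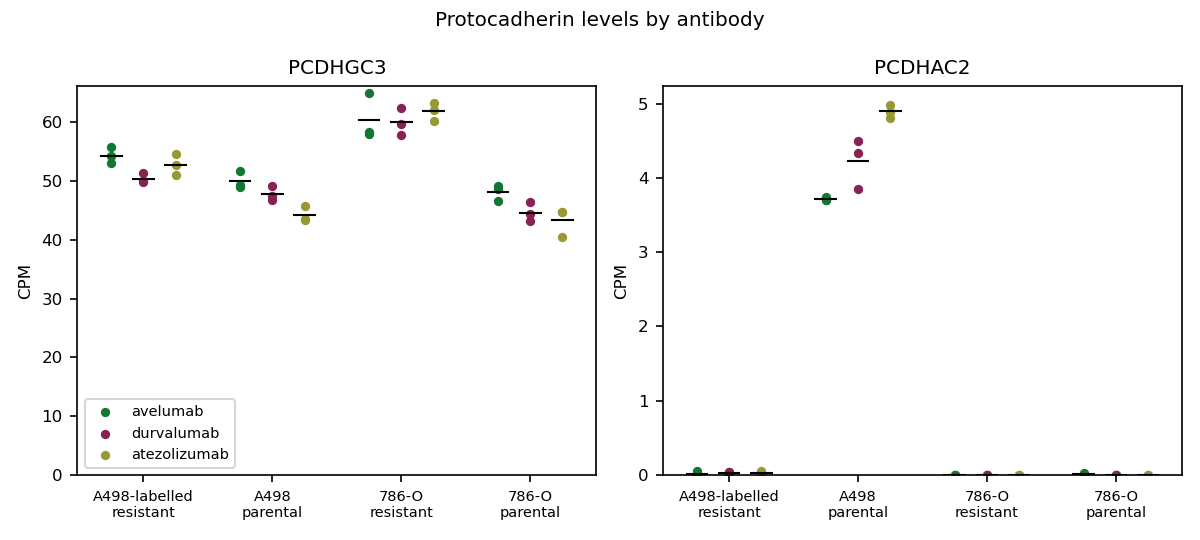
CPM of PCDHGC3 (left) and PCDHAC2 (right) by set and antibody (y axes, linear, from 0), with 3 points per group and a bar at the mean. In parental A498 PCDHGC3 is higher and PCDHAC2 lower under avelumab than under atezolizumab, and PCDHAC2 is near 0 in the other 3 sets.

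In the sets where none passed, the 2 genes of lowest p are given. In parental 786-O these were PCDHGB2, at 0.328 ± 0.135 CPM under avelumab, 0.138 ± 0.0456 under durvalumab and 0.366 ± 0.0859 under atezolizumab (SD, n = 3 each, edgeR adjusted p = 0.115), and PCDHGC3, at 48.1 ± 1.35 CPM under avelumab, 44.6 ± 1.64 under durvalumab and 43.3 ± 2.45 under atezolizumab (edgeR adjusted p = 0.12). In resistant 786-O they were PCDHGA10 and PCDHGA4 (edgeR adjusted p = 0.274 and 0.316), and in A498-labelled resistant cells PCDHGC3 and PCDHGB7 (edgeR adjusted p = 0.76 each).

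Genes that act on the clusters or with their products were described by lists. Of 11 architectural proteins, CTCF, cohesin and its loaders and release factors, 1 was higher and 8 lower in resistant than parental 786-O cells (median log2 change -0.30 against 0.03 over all genes), while 10 were higher and 1, CTCF, was lower in A498-labelled resistant than parental A498 cells (median 0.31 against 0.01 over all genes). In 786-O CTCF itself averaged 54.6 CPM in resistant and 71.3 CPM in parental cells, a log2 change of -0.49 ± 0.0257 (edgeR adjusted p = 6.47e-18). In A498-labelled cells NIPBL, the cohesin loader, changed most, at 130 CPM in resistant and 61.6 CPM in parental A498 cells, a log2 change of 0.99 ± 0.0326 (edgeR adjusted p = 3.30e-20). Between the parental lines 2 were higher and 8 lower in A498. Between the resistant sets all 11 were higher in A498-labelled cells (median 0.22 against -0.02 over all genes). In either direction, 81.8% of the list passed in 786-O and 90.9% between the parental lines, near the 83.8% and 87.2% of all genes. All of the list passed in A498-labelled resistant against parental A498 cells and between the resistant sets, where 88.2% and 69% of all genes did.

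Of 17 genes of silencing and DNA methylation, 8 were higher and 7 lower in resistant 786-O, 10 and 6 in A498-labelled resistant, 8 and 7 in parental A498 against parental 786-O, and 14 and 1 in A498-labelled resistant against resistant 786-O. Over all genes 83.8%, 88.2%, 87.2% and 69% passed in these comparisons, so the shares called in the first 3, 88.2%, 94.1% and 88.2%, are near those of all genes, and the share in the last was 88.2%. The median log2 changes of the list were -0.02, 0.09, 0.05 and 0.30, against 0.03, 0.01, 0.01 and -0.02 over all genes. The DNA methyltransferase DNMT3A was higher in resistant 786-O by a log2 change of 0.92 ± 0.0651 (edgeR adjusted p = 1.73e-14) and lower in A498-labelled resistant cells by -0.67 ± 0.0490 (edgeR adjusted p = 3.82e-17). TRIM28, a corepressor, averaged 332 CPM in A498-labelled resistant and 899 CPM in parental A498 cells, a log2 change of -1.52 ± 0.0234 (edgeR adjusted p = 1.73e-44). Of 22 genes of protocadherin signalling and processing, 10 were higher and 9 lower in resistant 786-O, 17 and 5 in A498-labelled resistant cells, 6 and 13 between the parental lines and 12 and 8 between the resistant sets, with medians of -0.02, 0.25, -0.12 and 0.07. WASF3, of the WAVE complex that binds some protocadherin tails, was higher in both resistant sets, with log2 changes of 3.15 in 786-O and 3.94 in A498-labelled cells.

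The non-clustered protocadherins and other cadherins are the nearest relatives. In resistant 786-O cells 5 of 5 tested non-clustered protocadherins were higher (11 in the list), where 43.6% of all genes were higher, PCDH10 by a log2 change of 5.42 ± 0.179 and PCDH1 by 5.41 ± 0.102 (edgeR adjusted p = 3.08e-23 and 5.77e-30). In A498-labelled resistant cells 2 were higher and 4 lower of 7 tested, where 44.2% and 44% of all genes were, with PCDH1 at 7.08 CPM in A498-labelled resistant and 61.3 CPM in parental A498 cells, a log2 change of -3.20 ± 0.0393 (edgeR adjusted p = 1.32e-48). All 7 tested were higher in parental A498 than parental 786-O, where 44.3% of all genes were, and 1 was higher and 3 lower of 5 between the resistant sets, where 33.8% and 35.2% of all genes were. Of 16 other cadherins, 11 were higher and 3 lower in resistant 786-O, 8 and 5 in A498-labelled resistant, 8 and 5 between the parental lines and 4 and 7 between the resistant sets, beside the same shares of all genes. CDH1, E-cadherin, averaged 3.14 CPM in resistant and 0.0523 CPM in parental 786-O cells.

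Genes around the clusters did not share one direction. Of 37 other genes within 1 Mb, 34 were tested in each comparison of a resistant set with the parental set of the same label. In 786-O 12 were higher and 18 lower (median log2 change -0.09), and in A498-labelled cells 17 were higher and 14 lower (median 0.24). Between the parental lines 13 were higher and 17 lower of 34, and between the resistant sets 9 and 16 of 34, and 69% to 88.2% of all genes passed in these comparisons. PCDH1, itself a neighbour, had the largest change of them in 786-O, at 8.79 CPM in resistant and 0.191 CPM in parental cells.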

How the data were processed

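RNA was measured in 36 libraries made with the TruSeq Stranded mRNA kit, per the labels' protocols. The authors deposited raw read counts per gene. Per the submitters' processing notes reads went through bcl2fastq (2.19.0), Trimmomatic (0.36.6), HISAT2 (2.1.0, build GRCh38) and counting by featureCounts (1.6.3). The annotation release, the strand setting and the handling of reads that meet several genes were not given in the sources used here. Groups come from the labels, and no pair of libraries was identical. The genes and lists were chosen with earlier results of these data known.

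From the counts, CPM were computed over the raw totals. Differences were tested with edgeR 4.0.16 (R 4.3.3; TMM scaling, filterByExpr with a minimum count of 10 and total of 15, robust quasi-likelihood F tests, Benjamini-Hochberg adjustment over all tested genes, threshold 0.05), fitted within the sets compared, with a mean for each group averaged over antibodies. The SE is the log2 change over the square root of F. Where a set holds few counts, this SE is smaller than counting error alone. That holds for PCDHA10, PCDHAC2, PCDHGB5 and PCDHGA12 in A498-labelled resistant cells, among others. The scripts were tested on simulated data. Alternatives were RLE or no scaling, DESeq2 1.42.0, no filter or a filter of 1 CPM, a replicate block, each antibody alone and each library left out. Unshared exon lengths use GENCODE 29, which matched 43799 of 45478 gene IDs. Every protocadherin could be named. Values in full went to called genes with a mean of 1 CPM or more in the higher set, the 3 of largest change per cluster and direction, to the 3 of highest CPM per kb in each set, and, for antibodies, to genes past the threshold or the 2 of lowest p. Of each other list up to 4 genes past the threshold could be named.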

Additional observations from a re-analysis of the deposited data

Results flagged for a closer look

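In each set of 9, the highest and the lowest library were compared with the rest, for cluster sums and named genes. These made 92 combinations, but those with a median of 0 CPM were skipped, so fewer tests were run. In them 4 libraries stood apart, where chance gives about 1 in 20 tests. The PCDHB13 level of parental 786-O durvalumab replicate 1 was 0.757 CPM, below the other 8 at 1.15 to 1.40 CPM. PCDHB16 stood at 5.49 CPM in parental A498 atezolizumab replicate 1, above 4.33 to 4.87 CPM. PCDHB9 stood at 1.12 CPM in resistant 786-O avelumab replicate 3, above 0.500 to 0.784 CPM. PCDHGB6 stood at 0.882 CPM in resistant 786-O durvalumab replicate 2, below 1.26 to 1.62 CPM.

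The resistant minus parental change differed between 786-O and the libraries labelled A498 in 12 of the 18 genes named in either comparison, by edgeR over all 36 libraries. Of all 20752 genes tested, 80.4% passed. The 18 were named for their change in these same data, so the count describes them and is no result about the clusters. As given above, these differences cannot be told apart from the difference between the parental lines. Differences (786-O change minus A498-labelled change, log2) were positive for PCDHB16 (3.54, adjusted p = 8.50e-26), PCDHB9 (1.58, adjusted p = 1.01e-08), PCDHGB2 (0.85, adjusted p = 6.12e-04), PCDHB2 (0.77, adjusted p = 4.92e-10) and PCDHB10 (0.76, adjusted p = 0.00398). They were negative for PCDHGB7 (-1.96, adjusted p = 4.72e-11), PCDHB13 (-1.69, adjusted p = 5.44e-14), PCDHB11 (-1.37, adjusted p = 4.90e-04) and PCDHGA10 (-1.33, adjusted p = 2.37e-07). PCDHGA12 (6.96, adjusted p = 8.59e-13), PCDHGB5 (7.37, adjusted p = 7.66e-06) and PCDHGA9 (4.43, adjusted p = 4.21e-15) were also positive, but the 786-O libraries hold few counts of them.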

How the results depend on the processing

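Recomputed were called genes with a mean of 1 CPM or more in the higher set, the 3 of largest change per cluster and direction. The adjusted p of PCDHGC3 for antibodies in parental A498 was added. Of these 1041 values, 1024 kept their side of the threshold and 0 changed direction. Genes that a setting dropped gave no value. PCDHB2 in 786-O was not among them, nor was PCDHGC3 in any comparison of sets but that of the resistant sets. PCDHGA10 in 786-O, which did not pass, was also left out: its change was positive overall and negative in the atezolizumab and in the durvalumab libraries alone. The number of protocadherins called moved by over 1.5 times under these settings. A filter of 1 CPM left fewer genes to test and called 8 in 786-O (18 in the main analysis), 19 in the A498-labelled comparison (29), 15 between the parental lines (29) and 9 between the resistant sets (17), while no filter called 44 between the parental lines. The 6 atezolizumab libraries alone called 11 in 786-O and 9 between the resistant sets, and the 6 avelumab libraries alone also 9 between the resistant sets. For antibodies in parental A498, DESeq2 and the replicate block each called 0 where the main analysis called 1, PCDHGC3 (adjusted p = 0.0841 and 0.0967). Leaving out 1 library at a time gave 18 to 19 calls in 786-O, 28 to 30 in the A498-labelled comparison, 30 to 33 between the parental lines, 14 to 18 between the resistant sets, 0 to 1 for antibodies in parental A498 and in parental 786-O, and 0 to 0 in both resistant sets. For the difference between lines all 12 libraries of a replicate number were left out together, which gave 19 to 20 calls (21 in the main analysis). The call in parental 786-O came without durvalumab replicate 1. The replicate block otherwise changed no count (18, 29, 29, 17 and 21); the numbers do not pair the samples, since same-numbered libraries correlated in their deviations at a median of -0.0035 in A498 and -0.000551 in 786-O, with 3 of 45 and 0 of 45 pairs over 0.1. Without scaling the median change of all genes in 786-O was 0.141 in place of 0.03, and 18 protocadherins were called there.

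Depth limits the low genes: PCDHA10, the alpha gene with most counts over all libraries, rests on 28, 2 and 4 counts in A498-labelled resistant, resistant 786-O and parental 786-O cells, and shared constant exons limit what an alpha or gamma count stands for.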
